A study of Mus musculus with 12 samples.

Results

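The D cyclins, their partner kinases and the CDK inhibitors that restrain them were followed through the development of the mouse choroid plexus. The 10 genes Ccnd1, Ccnd2, Ccnd3, Cdk4, Cdk6, Cdkn1a, Cdkn1b, Cdkn1c, Cdkn2c and Cdkn2d were taken by symbol from a table of 52459 gene symbols. All 10 were in the table, and 10 of 10 had at least 1 TPM, a length-adjusted unit of transcript abundance, in at least 3 of the 12 libraries, the condition for being tested. Cdk6 met it through the E12.5, P0 and P14 libraries alone. As deposited, every one of the 10 genes had a lower mean at 6 months than at E12.5, but they fell at different ages. Cdk4, Cdkn1c, Cdkn2c and Cdkn2d had most or all of their difference by P14. By contrast, Cdkn1a, Ccnd1 and Ccnd2 had their largest step on the log2(TPM + 1) scale between P14 and 6 months. As deposited, Cdk6, Cdk4 and Ccnd1 fell at every step with no overlap between neighbouring ages. Ccnd3 and Cdkn1b differed least, and their direction depended on how the libraries were scaled.

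D-type cyclins are induced by growth factor signals and bind Cdk4 or Cdk6. The active kinases phosphorylate the retinoblastoma protein, which releases E2F transcription factors and lets a cell enter S phase. Inhibitors of the INK4 family, here Cdkn2c (p18) and Cdkn2d (p19), bind the kinases and keep the cyclin away, whereas the Cip/Kip proteins Cdkn1a (p21), Cdkn1b (p27) and Cdkn1c (p57) bind cyclin and kinase together. The choroid plexus is a secretory, multiciliated epithelium on a vascular stroma that makes cerebrospinal fluid, and its epithelial cells leave the cell cycle early in development.

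Choroid plexus of B6 mice was dissected from embryos (E12.5), newborns (P0), pups on postnatal day 14 (P14) and adults of 6 months (A6m), and went directly into Trizol. Each age had 3 libraries, which the submitters describe as independent specimens. The Kapa mRNA HyperPrep chemistry was used, with 100 bp paired-end reads. The labels give neither sex nor ventricle nor whether tissue of several animals was pooled. The values are TPM, which are adjusted for transcript length and sum to the same total in each library. Read depth cannot be recovered from them.

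The libraries differed in ways that bear on all values. Markers of the choroid plexus epithelium, 15 genes led by Ttr, summed to 13656 to 25015 TPM at E12.5, then 150759 to 152385 at P0, 181628 to 196941 at P14 and 174731 to 180860 at A6m. Mitochondrially encoded transcripts took 11.2% to 17.7% of TPM at E12.5 and 31.3% to 34.0% at A6m. The median log2 difference of the 17422 tested genes was -0.27 for P0 against E12.5, -0.41 for P14 against P0, -0.04 for A6m against P14 and -0.71 for A6m against E12.5. After median-of-ratios scaling of the libraries, here shortened to scaling, the same medians were -0.02, 0.00, -0.00 and -0.01. E12.5 replicate 1 stood apart with 10839 TPM of the ribosomal RNA-associated transcript Gm42418, against 591 to 1071 TPM in the other 11 libraries. The A6m libraries held 148 to 155 TPM of Xist, which females express, against under 0.81 TPM in all P0 and P14 libraries, so sex and age cannot be told apart in the comparison of A6m with P14. The E12.5 libraries were mixed, with 139, 0.389 and 89.5 TPM of Xist and 9.26, 54.4 and 50.9 TPM of the Y-linked Ddx3y, so sex also differed between ages in the comparisons with E12.5. Replicates 1 and 3 of E12.5 had both Xist and Ddx3y, so each held RNA of both sexes. In bulk tissue, fewer cells of a type and less RNA per cell cannot be told apart.

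The promoters of Cdk4 and Cdkn1a are shown because these genes had the largest falls of the 10 at the first and at the last step on the log2(TPM + 1) scale. In mean TPM, Cdk6 fell slightly more than Cdkn1a at the last step (5.60-fold and 5.33-fold). Windows of 250 bases before a RefSeq transcript start (GRCm38.p6) were found for 7 of the 10 genes, Ccnd3, Cdk4, Cdk6, Cdkn1a, Cdkn1b, Cdkn2c and Cdkn2d. The Cdk4 window lies at chr10:127063285-127063534 on the plus strand, and capitals mark the E-box letters CACGTG, which Myc and Mycn proteins are known to bind.
Cdk4: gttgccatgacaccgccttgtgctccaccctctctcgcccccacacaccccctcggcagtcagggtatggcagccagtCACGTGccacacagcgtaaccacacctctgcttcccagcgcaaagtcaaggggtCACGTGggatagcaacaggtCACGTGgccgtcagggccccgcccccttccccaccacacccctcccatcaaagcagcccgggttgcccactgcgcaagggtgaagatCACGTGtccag
The Cdkn1a window is that of its upstream start, at chr17:29090729-29090978 on the plus strand, and capitals mark the letters CATG and CATG around 6 bases, the cores of a pair of p53 half-sites.
Cdkn1a: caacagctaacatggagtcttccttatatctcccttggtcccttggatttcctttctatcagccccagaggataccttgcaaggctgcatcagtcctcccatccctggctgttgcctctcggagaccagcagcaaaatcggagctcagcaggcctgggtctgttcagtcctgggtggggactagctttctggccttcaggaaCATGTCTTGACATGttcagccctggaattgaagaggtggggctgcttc
Both motifs read the same on either strand. The Cdk4 window holds CACGTG 4 times, with first bases at -172, -118, -98 and -11 from the start. At least 1 copy was in 6.02% of 32851 windows of this length over all genes, and at least 4 copies were in 7 windows (0.0213%). Cdk6 had 1 copy and the other windows of the 10 genes none. The p53 letters of the Cdkn1a window start at -48 and were in 161 of the 32851 windows (0.49%). The E2F letters TTTCCCGC, TTTCGCGC, TTTGCCGC and TTTGGCGC, searched on both strands, were in none of the windows of the 10 genes and in 1.86% of all windows. These matches describe the letters of the windows and not the binding of any factor.

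Among the D cyclins, Ccnd1 fell at every step and had its largest step on the log2 scale after P14. Ccnd1 (GRCm38 chr7:144929931-144939925, minus strand) had 67.4, 62.9 and 72.6 TPM at E12.5, 40.8, 36.7 and 36.1 TPM at P0, 25.1, 20.7 and 20.7 TPM at P14, and 4.57, 4.71 and 7.68 TPM at A6m. No 2 neighbouring ages overlapped. The log2 difference, on log2(TPM + 1) here and throughout, was -0.82 ± 0.15 (SE) for P0 against E12.5 (limma adjusted p = 0.000799), -0.75 ± 0.15 for P14 against P0 (adjusted p = 0.0019) and -1.83 ± 0.15 for A6m against P14 (adjusted p = 1.91e-05). With scaling the first of these was -0.54 (adjusted p = 0.0149), and that of P14 against P0 was -0.25 and missed the threshold (adjusted p = 0.240). Between E12.5 and A6m the fall was 11.96-fold in mean TPM.

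Ccnd2, the most abundant D cyclin transcript at E12.5 and P14, stepped down before birth and after P14 but not between. Ccnd2 (chr6:127125162-127152193, minus strand) had 155, 154 and 173 TPM at E12.5, 102, 93.9 and 96.8 TPM at P0, 112, 99.9 and 100.4 TPM at P14, and 34.1, 34.5 and 37.6 TPM at A6m. The libraries of P14 and P0 overlapped, and those of the other neighbouring ages did not. The log2 difference was -0.71 ± 0.07 for P0 against E12.5 (limma adjusted p = 7.99e-06) and -1.53 ± 0.07 for A6m against P14 (adjusted p = 3.46e-07). With scaling the first of these was -0.43 (adjusted p = 0.000962). For P14 against P0 the difference was 0.09 ± 0.07 (adjusted p = 0.300) as deposited, and with scaling Ccnd2 was higher at P14 by 0.60 (adjusted p = 0.000204).

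Ccnd3, the D cyclin with the widest expression in adult tissues, stayed near its embryonic level. Ccnd3 (chr17:47505051-47599691, plus strand) had 123, 135 and 120.3 TPM at E12.5, 111, 117 and 112 TPM at P0, 91.7, 85.9 and 88.1 TPM at P14, and 90.1, 86.0 and 89.7 TPM at A6m. The A6m and P14 libraries overlapped, and each earlier pair of neighbouring ages did not. As deposited, Ccnd3 was 1.42-fold lower in mean TPM at A6m than at E12.5 (log2 difference -0.50 ± 0.06, limma adjusted p = 1.06e-05), whereas with scaling it was higher by 0.34 (adjusted p = 0.0023). Neither call was seen without the 10 most abundant genes (-0.02, adjusted p = 0.735) or with quantile normalization (-0.08, adjusted p = 0.287). The small difference of P0 against E12.5, -0.15 (adjusted p = 0.0398), turned to 0.13 with scaling. That call was also lost without E12.5 replicate 2 (adjusted p = 0.132), P0 replicate 1 (0.107), P0 replicate 3 (0.109), P14 replicate 3 (0.0560), or A6m replicate 1 (0.0564), 2 (0.0504) or 3 (0.0567).

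**Figure D1:**
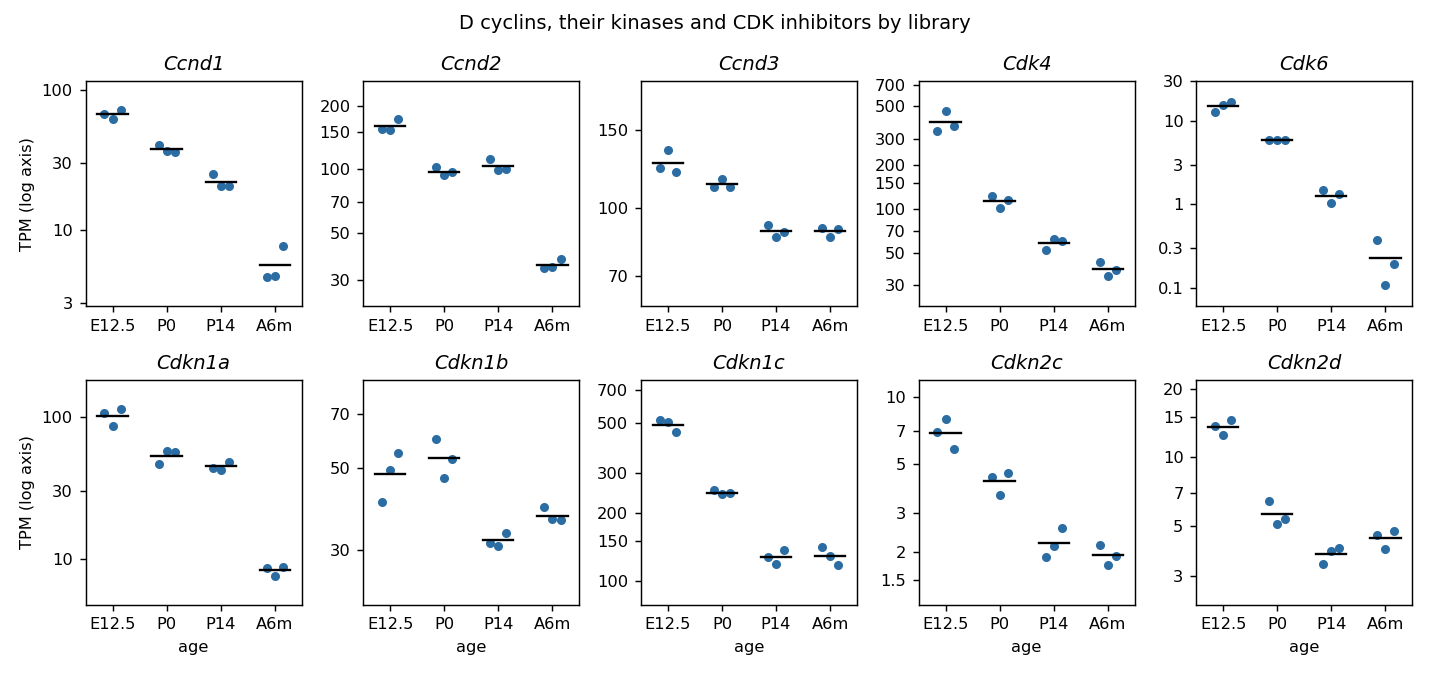
TPM of each of the 10 genes (log axes, each with its own range) by age, with a point per library and a bar at the mean of 3 libraries. Ccnd1, Ccnd2, Cdk6 and Cdkn1a have their largest fold drop in mean TPM between P14 and A6m. Cdk4 has its largest fold drop between E12.5 and P0, and Ccnd3 and Cdkn1b stay within a narrow range.

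The makeup of the D cyclin pool differed between ages, as a share that library scaling cannot alter. Ccnd3 made up 35.6% ± 2.73 of the summed D cyclin TPM at E12.5 (SD, n = 3), 45.5% ± 1.69 at P0, 41.3% ± 1.05 at P14 and 68.4% ± 1.78 at A6m. Ccnd1 made up 19.1% ± 1.08, 15.2% ± 0.704, 10.3% ± 0.565 and 4.33% ± 1.18 at the same ages, and its libraries did not overlap between any 2 ages. Ccnd2 made up 45.3%, 39.3%, 48.4% and 27.3%. Ccnd3 held the largest share in every P0 and every A6m library, and Ccnd2 in every E12.5 and every P14 library. The D cyclin sum itself was 354.5 TPM at E12.5, then 249 at P0, 215 at P14 and 129.7 at A6m.

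**Figure D2:**
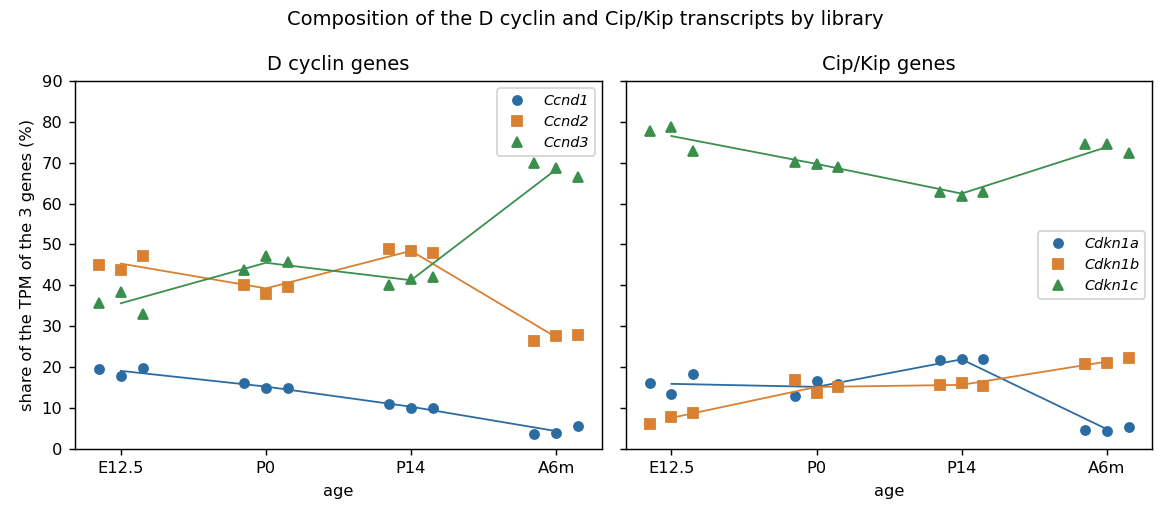
Share (%) of each gene in the summed TPM of the 3 D cyclin genes (left) and of the 3 Cip/Kip genes (right), with a point per library, 3 libraries per age, and lines through the means. In the A6m libraries Ccnd3 is at 66.4% to 70.0% of the D cyclin sum, and Cdkn1a at 4.44% to 5.44% of the Cip/Kip sum.

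Cdk4, the main partner kinase of the D cyclins here, had its largest fall before birth. Cdk4 (chr10:127063534-127067920, plus strand) had 343, 468 and 367 TPM at E12.5, 122, 101.2 and 115 TPM at P0, 51.9, 61.7 and 60.3 TPM at P14, and 43.4, 34.5 and 38.2 TPM at A6m. No neighbouring ages overlapped. At P0 it was 3.48-fold lower in mean TPM than at E12.5 (log2 difference -1.78 ± 0.13, limma adjusted p = 6.59e-07), at P14 1.94-fold lower than at P0 (-0.95 ± 0.13, adjusted p = 0.000146), and at A6m 1.497-fold lower than at P14 (-0.57 ± 0.13, adjusted p = 0.00919). Scaling kept the direction and the call of each step, but the difference of P14 against P0 was then -0.44 (adjusted p = 0.0191). The first step made up 54.0% of the total log2 fall of Cdk4 and 56.1% of that of the proliferation marker Mki67, against 24.1% for Ccnd1. The pseudocount raises this share for Mki67, since it shrinks the last step of that gene, from 1.58 TPM at P14 to 0.312 TPM at A6m. Exons of Cdk4 and of Tspan31 share 641 bases on opposite strands, and whether the authors' quantification used strand is not given in the sources used here. Tspan31 was at 103 TPM at E12.5, then 103 at P0, 83.4 at P14 and 91.0 at A6m. The same limit holds for Ccnd1, Ccnd2, Ccnd3, Cdk6, Cdkn1a and Cdkn1c, whose exons also overlap genes on the opposite strand. The longest of these overlaps is that of Ccnd1, 1100 bases with LTO1, which has no values under that symbol.

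Cdk6, the alternative partner, was a minor transcript that reached very low values in adults. Cdk6 (chr5:3341485-3531008, plus strand) had 12.7, 15.5 and 16.7 TPM at E12.5, 5.97, 5.93 and 5.86 TPM at P0, 1.47, 1.04 and 1.32 TPM at P14, and 0.381, 0.109 and 0.194 TPM at A6m. Each age lay below the one before it with no overlap. The log2 differences were -1.20 ± 0.13 for P0 against E12.5 (limma adjusted p = 1.30e-05), -1.61 ± 0.13 for P14 against P0 (adjusted p = 5.80e-06) and -0.89 ± 0.13 for A6m against P14 (adjusted p = 0.000687). In mean TPM the last step was 5.60-fold. At such levels the log2 size depends on the pseudocount, and the last difference was -2.14 with a pseudocount of 0.1 and -0.26 with a pseudocount of 5, both called. Cdk6 held 3.71% of the summed Cdk4 and Cdk6 TPM at E12.5, then 5.01% at P0, 2.18% at P14 and 0.563% at A6m.

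The Cip/Kip inhibitors took 3 different courses. Cdkn1a, the p53-inducible inhibitor p21, had the largest fall of the 10 genes between P14 and A6m on the log2(TPM + 1) scale. Cdkn1a (chr17:29090976-29100727, plus strand) had 106, 85.9 and 114 TPM at E12.5, 46.6, 57.1 and 56.2 TPM at P0, 43.9, 42.3 and 48.1 TPM at P14, and 8.63, 7.67 and 8.87 TPM at A6m. The P14 and P0 libraries overlapped, and all A6m libraries lay below all others. At A6m it was 5.33-fold lower in mean TPM than at P14 (log2 difference -2.28 ± 0.11, limma adjusted p = 5.33e-07), or -2.26 with scaling. At P0 it was lower than at E12.5 by 0.92 ± 0.11 (adjusted p = 3.91e-05). For P14 against P0 the difference was -0.24 (adjusted p = 0.0890) as deposited and 0.26 with scaling (adjusted p = 0.117). Without P0 replicate 1 or E12.5 replicate 2 that difference passed the threshold (adjusted p = 0.0353 and 0.0449).

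Cdkn1b, which encodes p27, the inhibitor best known for holding differentiated cells out of the cycle, had differences whose calls depended on scaling. Cdkn1b (chr6:134920401-134925513, plus strand) had 40.6, 49.4 and 55.1 TPM at E12.5, 60.1, 47.2 and 52.9 TPM at P0, 31.5, 30.9 and 33.4 TPM at P14, and 39.2, 36.3 and 36.1 TPM at A6m. The P0 and E12.5 libraries overlapped, and every A6m library was above every P14 library. The test called the difference of P14 against P0 (-0.72 ± 0.11, limma adjusted p = 0.000367) but not those of P0 against E12.5 (0.14, adjusted p = 0.296) or A6m against P14 (0.22, adjusted p = 0.219). With scaling these outcomes changed places. The difference of P14 against P0 was then -0.21 and missed the threshold (adjusted p = 0.0762), whereas P0 against E12.5 (0.42, adjusted p = 0.00184) and A6m against P14 (0.27, adjusted p = 0.0439) were called higher. Other rescalings gave only part of this change. Without the 10 most abundant genes and with quantile normalization, P14 against P0 stayed called lower (-0.52 and -0.37). P0 against E12.5 was called higher in both (0.43 and 0.39), and A6m against P14 was called in neither. For A6m against E12.5 the sign depended on scaling: -0.36 ± 0.11 as deposited (adjusted p = 0.0129) and 0.48 with scaling (adjusted p = 0.000571). Without E12.5 replicate 3 the value as deposited missed the threshold (adjusted p = 0.0531).

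Cdkn1c, which encodes p57 and is an imprinted gene expressed from the maternal allele, had the highest mean of the 10 genes at each age. Cdkn1c (chr7:143458339-143461050, minus strand) had 515, 504 and 455 TPM at E12.5, 252, 241 and 243 TPM at P0, 127, 119 and 137 TPM at P14, and 141, 129 and 118 TPM at A6m. At E12.5 its libraries overlapped those of Cdk4, and at the other ages they lay above those of all 9 other genes. Cdkn1c was 2.00-fold lower in mean TPM at P0 than at E12.5 (log2 difference -0.996 ± 0.08, limma adjusted p = 1.34e-06) and 1.92-fold lower at P14 than at P0 (-0.94 ± 0.08, adjusted p = 7.84e-06), and both calls held with scaling, at -0.71 (adjusted p = 0.000357) and -0.43 (adjusted p = 0.0134). For A6m against P14 the difference was 0.02 ± 0.08 (adjusted p = 0.928), and the libraries overlapped.

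Within the Cip/Kip pool, Cdkn1c held 76.5% of the summed TPM at E12.5, then 69.7% at P0, 62.5% at P14 and 73.8% at A6m. The share of Cdkn1a was 15.9% ± 2.38 at E12.5, then 15.2% ± 1.91 at P0, 21.9% ± 0.170 at P14 and 4.82% ± 0.543 at A6m (SD, n = 3 each). The share of Cdkn1b was 7.57% ± 1.36, 15.1% ± 1.55, 15.6% ± 0.395 and 21.3% ± 0.742 at those ages. Cdkn1b thus exceeded Cdkn1a in all A6m libraries and was below it in all E12.5 and P14 libraries.

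Both INK4 genes were expressed at low levels and were lower after birth. Cdkn2d (chr9:21288410-21291407, minus strand) had 13.8, 12.52 and 14.6 TPM at E12.5, 6.42, 5.11 and 5.38 TPM at P0, 3.38, 3.86 and 3.99 TPM at P14, and 4.55, 3.97 and 4.77 TPM at A6m. Cdkn2c (chr4:109660876-109667189, minus strand) had 6.91, 7.91 and 5.82 TPM at E12.5, 4.35, 3.60 and 4.54 TPM at P0, 1.89, 2.12 and 2.55 TPM at P14, and 2.16, 1.75 and 1.92 TPM at A6m. For both genes the A6m libraries overlapped the P14 libraries, and the earlier neighbouring ages did not overlap. Cdkn2d fell by 1.14 ± 0.11 on the log2 scale at P0 against E12.5 (limma adjusted p = 5.06e-06), a call that held with scaling (-0.86). Cdkn2c fell by 0.61 ± 0.13 (adjusted p = 0.00215), and with scaling its difference was -0.35 and missed the threshold (adjusted p = 0.0633). The differences of P14 against P0, -0.48 for Cdkn2d and -0.70 for Cdkn2c, were called as deposited (adjusted p = 0.00325 and 0.00121) and not with scaling (adjusted p = 0.732 and 0.117). Of the remaining INK4 genes, Cdkn2a was listed at 0 in all E12.5 and P0 libraries and reached at most 0.182 TPM, and Cdkn2b lay between 0.356 and 1.46 TPM with no call as deposited. With scaling Cdkn2b was called higher at P14 against P0 (0.59, adjusted p = 0.0219) and at A6m against E12.5 (0.65, adjusted p = 0.00705).

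The counts of called genes among the 10 were set against those among all tested genes. At P0 against E12.5, 0 of the 10 genes were called higher and 9 lower, where 18.6% and 43.7% of all tested genes were called. With scaling, 1 was higher (Cdkn1b) and 7 were lower, where 29.0% and 31.0% of all genes were called. The share of all calls that were higher was 29.8% as deposited and 48.3% with scaling. At P14 against P0, 0 were higher and 8 lower (5.33% and 53.5% of all genes). With scaling, 1 was higher (Ccnd2) and 3 were lower (Cdk4, Cdk6 and Cdkn1c), where 22.7% and 19.8% of all genes were called and 53.4% of calls were higher, against 9.06% as deposited.

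At A6m against P14, 0 of the 10 genes were higher and 5 lower, Ccnd1, Ccnd2, Cdk4, Cdk6 and Cdkn1a, where 8.78% and 12.1% of all tested genes were called. With scaling 6 were called, the same 5 lower and Cdkn1b higher, where 29.1% of all genes were called either way and 52.1% of those calls were higher, against 42.0% as deposited. At A6m against E12.5, 0 were higher and 10 lower (15.2% and 62.0% of all genes). With scaling, 2 were higher (Ccnd3 and Cdkn1b) and 8 were lower (35.4% and 35.8% of all genes), and the higher share of calls was 19.7% as deposited and 49.75% with scaling. The moderated F-test over the 4 ages called all 10, as it did 85.1% of all tested genes. The median log2 difference of the 10 genes was -0.87, -0.71, -0.34 and -2.04 in the order of these 4 comparisons, and -0.58, -0.23, -0.30 and -1.19 with scaling.

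**Figure D3:**
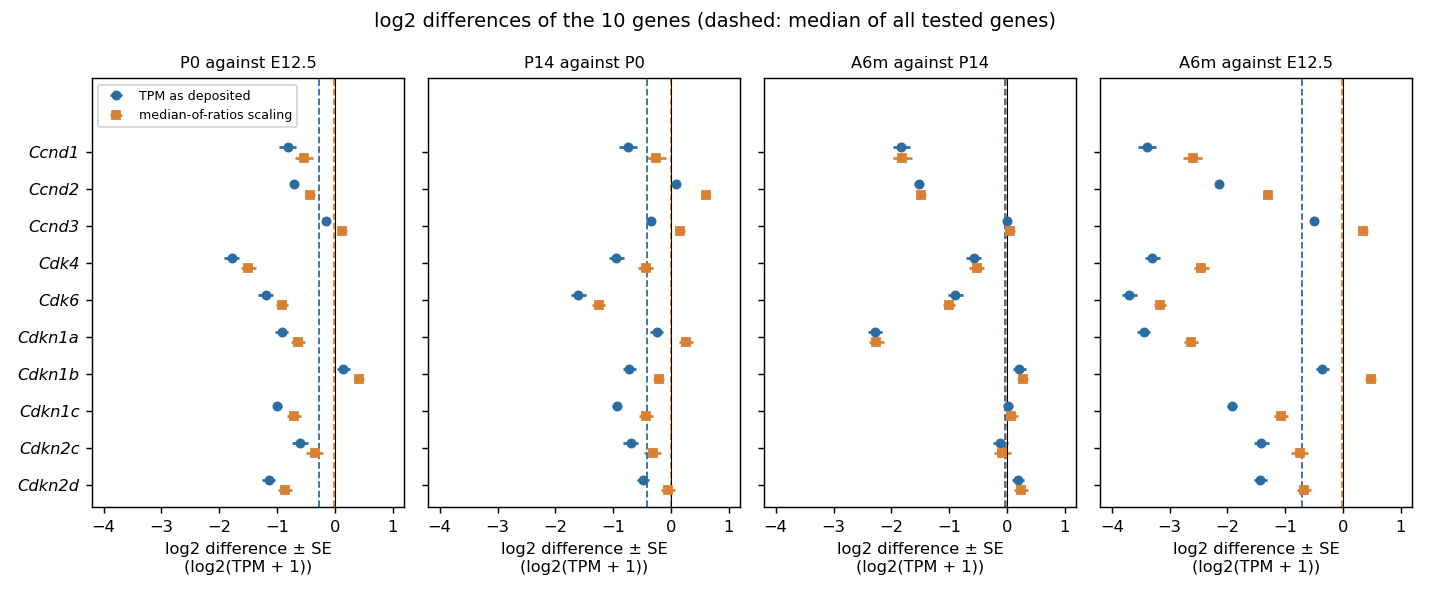
Log2 differences of the 10 genes with their SE in 4 comparisons, the later age minus the earlier, as deposited (circles) and with scaling (squares), with dashed lines at the median of all 17422 tested genes. Ccnd3 and Cdkn1b change side of 0 with scaling at A6m against E12.5, where the other 8 genes stay below 0.

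The step from P14 to A6m split the 10 genes. The median of all tested genes barely moved at that step (-0.04), and the difference of Cdkn1a, -2.28, lay at percentile 0.270 of all tested differences. Ccnd1 lay at percentile 0.683, Ccnd2 at 1.18, Cdk6 at 4.28 and Cdk4 at 9.49. The other 5 genes, Ccnd3, Cdkn1b, Cdkn1c, Cdkn2c and Cdkn2d, had log2 differences between -0.11 and 0.22 and no call. Over the same step, 12.1% of all tested genes were called lower and 8.78% higher. Of the endothelial markers 10 of 10 fell (median log2 difference -1.05), and 2 of the 10 (Tie1 and Erg) were under 1 TPM in every A6m library. Their summed level was 23.2 to 37.3 TPM at A6m, against 84.3 to 112 TPM at P14. Of the mural cell markers 6 of 8 fell, with sums of 14.8 to 25.2 TPM at A6m and 79.4 to 112 TPM at P14, and 3 of the 8 (Kcnj8, Myh11 and Notch3) were under 1 TPM in every A6m library. Among 9 tested fibroblast and matrix markers 6 fell, with sums over 10 genes of 174 to 246 TPM at A6m and 287 to 344 TPM at P14. Macrophage markers fell in 6 of 10, with sums of 27.3 to 45.5 TPM at A6m and 57.7 to 62.6 TPM at P14. The part of these cells, and of sex, in the falls of Cdkn1a, Ccnd1 and Ccnd2 was not tested.

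**Figure D4:**
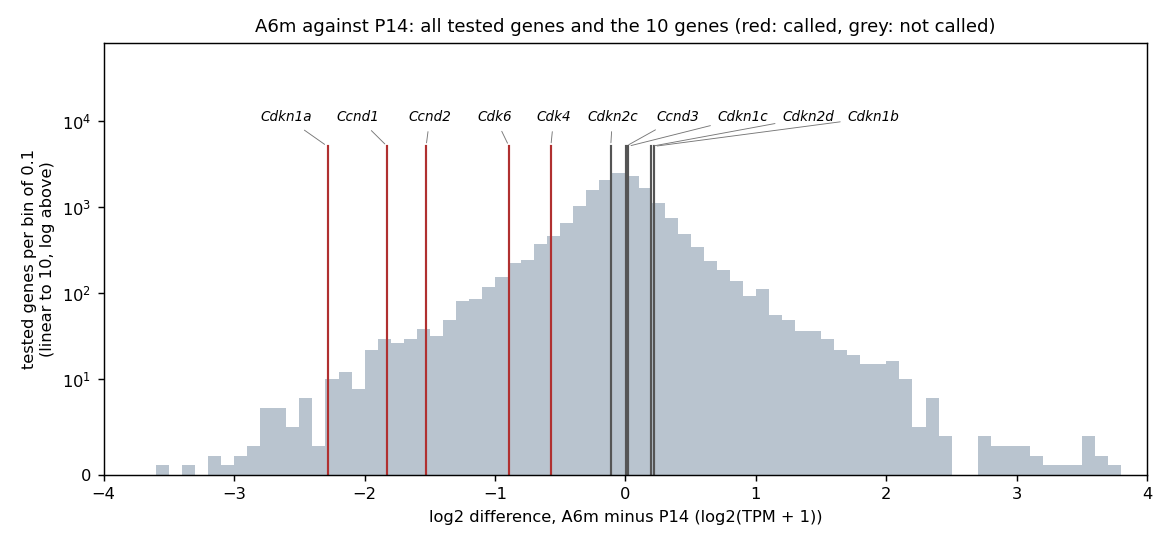
Number of tested genes (vertical axis, linear to 10 and logarithmic above) by log2 difference of A6m against P14 in bins of 0.1, with lines at the 10 genes. Cdkn1a, Ccnd1, Ccnd2, Cdk6 and Cdk4 (red, called) lie on the lower side, and the 5 genes in grey lie between -0.11 and 0.22.

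The balance between the groups of genes also differed by age, as ratios of summed TPM within a library. The D cyclin sum over the Cdk4 and Cdk6 sum was 0.885 ± 0.135 at E12.5, then 2.11 ± 0.173 at P0, 3.66 ± 0.547 at P14 and 3.36 ± 0.366 at A6m (SD, n = 3 each), and the A6m and P14 libraries overlapped. The Cip/Kip sum over the Cdk4 and Cdk6 sum was 1.60 ± 0.271, 2.98 ± 0.214, 3.46 ± 0.369 and 4.51 ± 0.420 at these ages. Its P14 libraries overlapped those of P0, while the A6m libraries lay above those of all other ages. The Cip/Kip sum over the D cyclin sum was 1.81 ± 0.106 at E12.5, then 1.42 ± 0.0222 at P0, 0.953 ± 0.0833 at P14 and 1.35 ± 0.131 at A6m. These ratios describe transcripts and were not tested.

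**Figure D5:**
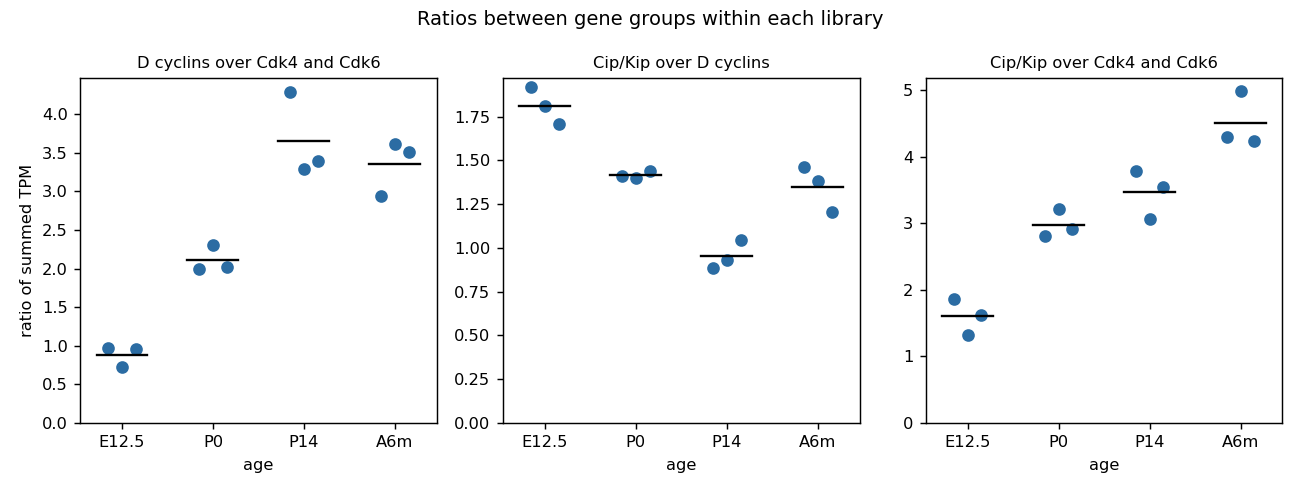
Ratios of summed TPM between the D cyclins, Cdk4 with Cdk6, and the Cip/Kip genes by age, with a point per library and a bar at the mean of 3 libraries. D cyclins over kinases are below 1 in all E12.5 libraries and above 2.9 in all P14 and A6m libraries.

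Downstream of the D cyclin kinases, E2F-linked and later cyclin genes were lower after birth. The counts of this and the following lists stand against 18.6% higher and 43.7% lower among all tested genes at P0 against E12.5 (29.0% and 31.0% with scaling), and 8.78% and 12.1% at A6m against P14. In the list of Rb and E2F genes, 3 of 19 were higher and 16 lower at P0 against E12.5, and 3 were higher and 14 lower with scaling. At A6m against P14, 3 were higher and 3 lower. E2f7, an atypical E2F that represses E2F targets, was at 5.55 ± 0.583 TPM at P0, against 51.3 ± 1.58 TPM at E12.5 (log2 difference -3.001, limma adjusted p = 3.98e-09). Foxm1, a transcription factor of G2 and mitosis genes, was at 3.17 ± 0.355 TPM at P0, against 27.9 ± 3.38 TPM at E12.5. Of 13 genes of E, A and B cyclins with their kinases, 0 were higher and 12 lower at P0 against E12.5, also with scaling. At A6m against E12.5, 13 of 13 were lower, also with scaling, where 62.0% of all tested genes were lower (35.8% with scaling). Ccnb1, the mitotic cyclin B1, fell to 7.64 ± 0.926 TPM at P0, against 89.2 ± 6.70 TPM at E12.5. Cdk1, its kinase, was at 60.6 ± 2.31 TPM at P0, against 302 ± 23.7 TPM at E12.5, and at 9.88 ± 1.27 TPM at A6m, against 15.1 ± 1.86 TPM at P14.

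Genes of DNA replication and mitosis fell at P0 in 33 of 33 cases (32 with scaling). At P14 against P0, 30 of 33 fell (25 with scaling), where 53.5% of all tested genes were called lower (19.8% with scaling). At A6m against P14, 13 of 33 fell. The median log2 difference of this list was -2.80 at the first step and -0.41 at the last. The pseudocount makes the last value smaller for genes near or below 1 TPM. Mki67 was at 7.36 ± 0.160 TPM at P0, against 89.2 ± 10.6 TPM at E12.5, and at 0.312 ± 0.131 TPM at A6m, against 1.58 ± 0.251 TPM at P14, where its log2 difference was -0.98.

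Markers of other cell types also differed between P0 and E12.5. Of 12 erythroid markers 11 fell and 1 rose, with sums of 6656 to 13505 TPM at P0, against 55805 to 62856 TPM at E12.5, and 2 of them (Klf1 and Epb42) were under 1 TPM in every P0 library. Endothelial markers fell in 9 of 10, with sums of 220 to 291 TPM at P0 and 397 to 441 TPM at E12.5. Fibroblast and matrix markers fell in 5 of 9 and rose in 2, with sums over 10 genes of 686 to 719 TPM at P0 and 1149 to 1591 TPM at E12.5. Macrophage markers fell in 5 of 10, with sums of 117 to 140 TPM at P0 and 184 to 239 TPM at E12.5. Mural cell markers fell in 4 of 8 and rose in 2. Neural progenitor and roof plate markers fell in 5 of 8 (with scaling, 4 fell and 2 rose). Their sums over 9 genes were 288 to 297 TPM at P0 and 388 to 416 TPM at E12.5. Neuron markers fell in 2 of 7 and rose in 1, with sums over 8 genes of 18.3 to 33.9 TPM at P0 and 17.3 to 121 TPM at E12.5. Epithelial markers rose in 13 of 15. The part of these cells in the falls of Cdk4, the E2F genes, the later cyclins and the replication genes at P0 was not tested.

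The genes of the multiciliated cell fate, which in other tissues is entered by cells that have stopped dividing, fell in 15 of 16 cases at P0 (14 with scaling). Among them Ccno, a cyclin-related gene of centriole amplification, was at 4.69 ± 0.388 TPM at P0, against 47.2 ± 5.92 TPM at E12.5.

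Genes that act on D cyclins and inhibitors from upstream were mixed. Among 20 genes known to induce D cyclins, 1 was higher and 12 lower at P0 against E12.5, and 5 were higher and 9 lower with scaling, beside 43.7% and 31.0% lower among all tested genes. Mycn fell to 1.27 ± 0.630 TPM at P0, against 8.46 ± 1.10 TPM at E12.5 (log2 difference -2.09, limma adjusted p = 3.41e-06). Gli1, a target and effector of Hedgehog signals, was at 2.06 ± 0.761 TPM at P0, against 18.5 ± 0.158 TPM at E12.5. At A6m against P14 only 3 of the 20 were called, all lower, among them Ets1, an endothelial and lymphoid transcription factor, at 1.76 ± 0.535 TPM at A6m, against 4.00 ± 0.745 TPM at P14 (-0.86, adjusted p = 0.00573).

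In a list of Trp53 and its target genes that leaves out Cdkn1a, 12 of 24 fell and 1 rose at A6m against P14, beside 12.1% lower and 8.78% higher among all tested genes. With scaling 13 fell and 2 rose, where 29.1% of all tested genes were called either way and 52.1% of those calls were higher. Gadd45a, a stress-induced p53 target, was at 1.21 ± 0.562 TPM at A6m, against 2.92 ± 0.0678 TPM at P14 (log2 difference -0.86, limma adjusted p = 0.0056). Trp53 itself was at 9.66 ± 0.917 TPM at A6m and 10.999 ± 0.837 TPM at P14, a difference that was not called (adjusted p = 0.361). Perp, a p53 target that encodes a desmosomal membrane protein, ran the other way early on, with 121 ± 0.572 TPM at P0, against 17.2 ± 2.55 TPM at E12.5.

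Genes for the turnover of D cyclins and p27 were called in both directions. At P0 against E12.5, 1 of 15 was higher and 5 lower, and with scaling 5 were higher and 4 lower, where 43.7% and 31.0% of all tested genes were lower. The lower ones include Skp2, the ubiquitin ligase subunit that marks p27 for destruction, at 4.73 ± 0.153 TPM at P0, against 37.7 ± 2.68 TPM at E12.5 (log2 difference -2.75, limma adjusted p = 2.36e-08), and its cofactor Cks1b, at 19.2 ± 0.629 TPM at P0, against 140 ± 7.64 TPM at E12.5. The higher one is Usp2, a deubiquitinase that stabilises cyclin D1, at 51.4 ± 7.27 TPM at P0, against 24.9 ± 5.22 TPM at E12.5 (1.03, adjusted p = 0.00011). The CDK-activating kinase list holds 4 genes, of kinases that phosphorylate CDKs and of their subunits. It was lower in 4 of 4 at P0 as deposited and in 0 of 4 with scaling. In the imprinted domain of Cdkn1c, 2 of 10 tested genes were higher and 4 lower at P0 against E12.5. Slc22a18, a neighbour that is likewise maternally expressed, was at 4.47 ± 0.300 TPM at P0, against 1.504 ± 0.490 TPM at E12.5, the opposite direction to Cdkn1c. Among the lower ones were Nap1l4, at 97.2 ± 12.2 TPM at P0, against 168 ± 25.9 TPM at E12.5, and Tnfrsf23, at 2.66 ± 0.287 and 5.36 ± 1.05 TPM.

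Across the 12 libraries the closest of the 10 genes to each other were Ccnd2 and Cdkn1a (Pearson's r = 0.987 on the log2 scale), Cdkn1c and Cdkn2c (0.980) and Ccnd1 and Cdkn1a (0.977), and the least alike were Ccnd2 and Cdkn1b (0.362). These r values, over 4 ages of 3 libraries, share the course of all genes with age and are a description. Of the 9773 named genes whose mean reached 10 TPM at some age, Gnai2 was most like Cdk4 (r = 0.997), Ccdc8 most like Cdk6 (0.998), Slit3 most like Ccnd1 (0.996) and Csf1 most like Ccnd3 (0.993). Jam3, a junctional adhesion molecule, was the closest to Ccnd2 (0.982) and second to Dnmt3a (0.987), a DNA methyltransferase, for Cdkn1a. The 3 genes most like Cdkn2d were Zmynd10, Dynlrb2 and Dyx1c1 (0.994, 0.993 and 0.993). Zmynd10 and Dyx1c1 encode assembly factors of ciliary dynein arms. Zmynd10 had 80.1 TPM at E12.5, then 21.5 at P0, 10.6 at P14 and 14.1 at A6m, beside 13.6, 5.64, 3.75 and 4.43 TPM for Cdkn2d.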

How the data were processed

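RNA-seq libraries of choroid plexus from B6 mice, 3 at each of 4 ages, were compared. The TPM values were computed by the authors with kallisto on GRCm38, per the submitters' processing notes. Version, annotation release, use of strand and the way transcripts were joined into genes are not given in the sources used here. TPM holds no counts, so depth is unknown and no count model or counting interval was used. Of the table's sample columns, 12 were used and 7 were not used here.

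Genes with at least 1 TPM in at least 3 of 12 libraries (17422) were tested as log2(TPM + 1) with limma 3.58.1 (eBayes with trend, R 4.3.3), with 4 ages as group means and 8 residual degrees of freedom, and called at a Benjamini-Hochberg adjusted p under 0.05 over all 17422. The pseudocount makes log2 differences of low genes smaller than their fold. The script was tested on simulated data. "Rose", "fell", "higher" and "lower" in counts mean called.

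Replicate numbers come from the sample titles and were not found to pair the libraries. Sex was not modelled. Coordinates are GENCODE M21 on GRCm38. The 10 genes and all gene lists were chosen with earlier results of these data known. Named genes were the 10, for each of them the 3 tested genes with the highest r over the 12 libraries (mean of at least 10 TPM at an age), and up to 4 genes per list with the largest difference between A6m and E12.5, from which a part is printed. Cdkn2a, Myc, Igf2, Tspan31, LTO1, Xist, Ddx3y, Ttr, Gm42418 and single cell type markers were named outside these rules. Alternatives were median-of-ratios scaling (from the 19075 genes with no 0), rescaling without the 10 most abundant genes, quantile normalization, a pseudocount of 0.1 or 5, no filter on low values, a filter at a mean of 5 TPM, only the 6 libraries compared, array quality weights, the replicate block, and each library left out. Figures used Python 3.11.15 and matplotlib 3.10.9.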

Additional observations from a re-analysis of the deposited data

How the results depend on the processing

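Of 876 recomputed differences of the 10 genes, 822 kept direction and side of the threshold, 23 lost the call, 11 gained one and 20 changed sign; the cause of these changes was not tested. Counts of genes called higher, 0 of 10 as deposited in each comparison, became 1 at P0 against E12.5 and 1 at P14 against P0 with scaling, without the 10 most abundant genes and with quantile normalization. They became 1 at A6m against P14 with scaling or with only the 6 libraries, and 2 at A6m against E12.5 with scaling, or 1 with quantile normalization. Genes called lower at P14 against P0, 8 as deposited, were 3 with scaling and 4 with quantile normalization. The signs that turned with scaling were those of Ccnd3 at P0 against E12.5 (0.13), P14 against P0 (0.16) and A6m against E12.5 (0.34), of Cdkn1a at P14 against P0 (0.26) and of Cdkn1b at A6m against E12.5 (0.48). Without the 10 most abundant genes they were Ccnd3 at P0 against E12.5 (0.14), Cdkn1b at A6m against E12.5 (0.12), and at A6m against P14 Ccnd3 (-0.015) and Cdkn1c (-2.0e-05). With quantile normalization they were Ccnd3 at P0 against E12.5 (0.00030), Cdkn1a (0.064) and Cdkn2d (0.060) at P14 against P0, and Cdkn1b at A6m against E12.5 (0.23). With array weights Cdkn1c at A6m against P14 was -0.0031. Leaving out 1 library at a time, that comparison ranged from -0.048 to 0.079 for Cdkn1c and from -0.020 to 0.026 for Ccnd3. Replicate numbers shared between ages did not pair the libraries, since correlations of same-numbered libraries lay between -0.064 and 0.072. Fitted as a replicate block, they removed 1 call, Ccnd3 at P0 against E12.5 (adjusted p = 0.0653), and left the 8 genes called lower there. Without E12.5 replicate 1, all 40 differences kept their direction and side of the threshold. The 3 libraries per age and the unknown depth limit statements on Cdk6, Cdkn2c and Cdkn2d, which lie at a few TPM.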

Other observations

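Some values of the same pathway had no place above. Myc, the founding member of the family that binds E-boxes, was at 1.05 ± 0.0573 TPM at P0, against 8.76 ± 1.96 TPM at E12.5, and at 0.232 ± 0.0594 TPM at A6m, against 0.335 ± 0.127 TPM at P14. Igf2, a growth factor that the choroid plexus secretes, was at 1079.6 ± 16.9 TPM at E12.5, then 1264 ± 54.6 at P0, 1074 ± 93.1 at P14 and 862 ± 46.6 at A6m, a far narrower range than that of Ccnd1. The products of FoxO genes induce Cdkn1b when growth factor signals are low. Of 3 tested FoxO genes, 1 was higher and 1 lower at P0 against E12.5, where 18.6% and 43.7% of all tested genes were called. With scaling 2 were higher and 0 lower (29.0% and 31.0% of all genes). Foxo3 was at 17.6 ± 1.86 TPM at P0, against 12.54 ± 1.97 TPM at E12.5 (limma adjusted p = 0.00502). Foxo4 was at 15.3 ± 1.34 TPM at P0, against 20.3 ± 1.95 TPM at E12.5 (adjusted p = 0.00556). At P14 against P0, 3 of 3 tested FoxO genes were lower (2 of 3 with scaling), where 53.5% of all tested genes were called lower (19.8% with scaling).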
